A study of Rattus norvegicus with 36 samples.

Results

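The comparison described here is the first dose step of a decabromodiphenyl ether (decaBDE) study in male rat liver, 0.959 against 0.1 mg/kg. It used the 6 arrays titled 0.959 mg/kg and the 6 titled 0.1 mg/kg, which are 12 of the 36 arrays of the series, and all 31042 probe sets that are not array controls. DecaBDE is a brominated flame retardant. Male Harlan Sprague Dawley rats aged 7 weeks were dosed by gavage on each of 5 consecutive days, and the left lobe of the liver was collected 1 day later. The 0.959 mg/kg rats and the 0.1 mg/kg rats were of the same strain, sex and age, and both received the compound in corn oil at 5 ml/kg. The 6 arrays of corn oil alone entered only an alternative fit to all 36 arrays, where they served to estimate the spread. Every difference is thus between 2 doses of decaBDE and none is against undosed liver. The arrays of 9.59, 95.9 and 959 mg/kg, 6 each, served to estimate the spread of each probe set and to place the first step in the dose series. RNA was hybridised to Affymetrix 3' expression arrays, and each value is a log2 RMA signal, on which a difference of 1 is a doubling. The labels do not say in so many words that each array is a separate rat, so the p-values speak for the spread between arrays, and the number of arrays limits the precision.

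CAR and PXR are nuclear receptors of hepatocytes that switch on genes of drug metabolism when foreign compounds reach the liver. Their targets include cytochrome P450 enzymes of the Cyp2b and Cyp3a subfamilies, which oxidise the compound, enzymes that attach glucuronic acid or glutathione to it, and pumps that export it. In rat liver, Cyp2b genes are the classical readout of CAR and Cyp3a genes that of PXR, while Cyp1a1 is the classical readout of a different sensor, the aryl hydrocarbon receptor.

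Pearson's r between any pair of the 12 arrays, taken across probe sets, lay between 0.9881 and 0.9964, and array medians lay between 5.14 and 5.19. Among these arrays, 0.1 mg/kg replicate 6 was the least like the others, with an estimated array weight of 0.536 and a score of -35.6 on the leading principal component (23.9% of the variance). Some results, though not all that it moved, are also given without it. The 13 measured hepatocyte markers averaged 13.42 to 13.54 per array at 0.959 mg/kg and 13.46 to 13.50 at 0.1 mg/kg, where the median of all probe sets was 5.16. The 12 exocrine pancreas markers averaged 4.37 to 4.61 at 0.959 mg/kg and 4.39 to 4.63 at 0.1 mg/kg. Actin's 3' to 5' log2 difference, a sign of RNA integrity, was 1.23 ± 0.107 at 0.959 mg/kg and 1.24 ± 0.147 at 0.1 mg/kg (SD, n = 6 each). The groups did not differ beyond their spread (two-sided exact permutation test, p = 0.835).

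Of 31042 probe sets, 2 were higher at 0.959 than at 0.1 mg/kg and 0 were lower at a limma adjusted p under 0.05, which is 0.00644% of those tested. Both belong to drug-metabolizing cytochrome P450 genes, one probe set shared by Cyp2b1 and Cyp2b2 and one of Cyp3a23-3a1. limma gave 1426 probe sets (4.59%) an unadjusted p under 0.05, 679 of them higher (2.19%) and 747 lower (2.41%), while 48.8% of all probe sets had a difference above 0. The median absolute log2 difference over all probe sets was 0.0553, and 57 probe sets (0.184%) differed by more than 0.5. All 6 arrays of one dose lay beyond all 6 of the other for 52 probe sets (0.168%), 28 above (0.0902%) and 24 below (0.0773%). In the plot of all probe sets, the shared Cyp2b probe set stands alone at the top.

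**Figure D1:**
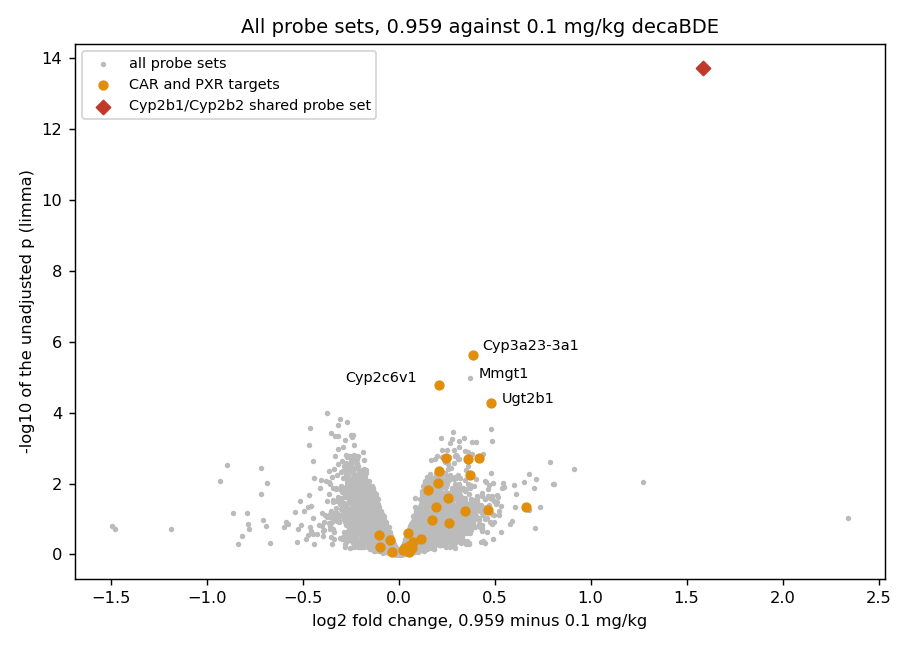
Each point is 1 of 31042 probe sets, with the log2 difference of 0.959 minus 0.1 mg/kg on the horizontal axis and -log10 of limma's unadjusted p on the vertical axis; CAR and PXR targets are orange and the probe set shared by Cyp2b1 and Cyp2b2 is the red diamond. The diamond, at a log2 difference of 1.59, lies far above all other points, and Cyp3a23-3a1 is the highest of the rest.

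The probe set shared by Cyp2b1 and Cyp2b2, P450 genes that CAR induces in rat hepatocytes, had a lowest, median and highest signal of 12.90, 12.99 and 13.26 at 0.959 mg/kg, against 10.96, 11.46 and 11.87 at 0.1 mg/kg. The groups lay more than 1 log2 unit apart at their nearest arrays, and the 0.959 mg/kg arrays were the tighter of the groups (SD 0.151 and 0.321, n = 6 each). The mean was 13.04 at 0.959 mg/kg and 11.45 at 0.1 mg/kg. The signal thus rose 3-fold across the step (log2 1.59, SE 0.116, 95% interval 1.35 to 1.82, limma adjusted p = 5.87e-10). The exact permutation test over the 12 arrays gave p = 0.00216 (two-sided), the smallest that 924 splits allow. Without 0.1 mg/kg replicate 6 the log2 difference was again 1.59. The array cannot separate the 2 genes, so neither has a value of its own.

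Cyp3a23-3a1, a P450 gene induced through PXR, had signals of 13.09, 13.26 and 13.36 (lowest, median and highest) at 0.959 mg/kg, against 12.73, 12.88 and 12.96 at 0.1 mg/kg. Again no array of 0.959 mg/kg reached down to the 0.1 mg/kg range. The means were 13.25 ± 0.0889 at 0.959 mg/kg and 12.86 ± 0.0969 at 0.1 mg/kg (SD, n = 6 each). The signal rose 1.31-fold (log2 0.39, SE 0.067, 95% interval 0.25 to 0.53, limma adjusted p = 0.037). The exact permutation test over the 12 arrays gave the smallest possible p, 0.00216. The adjusted p was close to the threshold, and the call was lost when any of 9 arrays was left out, while the log2 difference stayed between 0.36 and 0.42. Those arrays were 0.1 mg/kg replicates 1, 2, 4 and 6 (adjusted p = 0.0727, 0.137, 0.134 and 0.124) and 0.959 mg/kg replicates 2 to 6 (adjusted p = 0.118, 0.101, 0.116, 0.13 and 0.134). It was also lost in a fit to the 12 compared arrays alone (limma adjusted p = 0.256).

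In the plot of single arrays the separation of these 2 probe sets can be set beside 4 genes that did not pass.

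**Figure D2:**
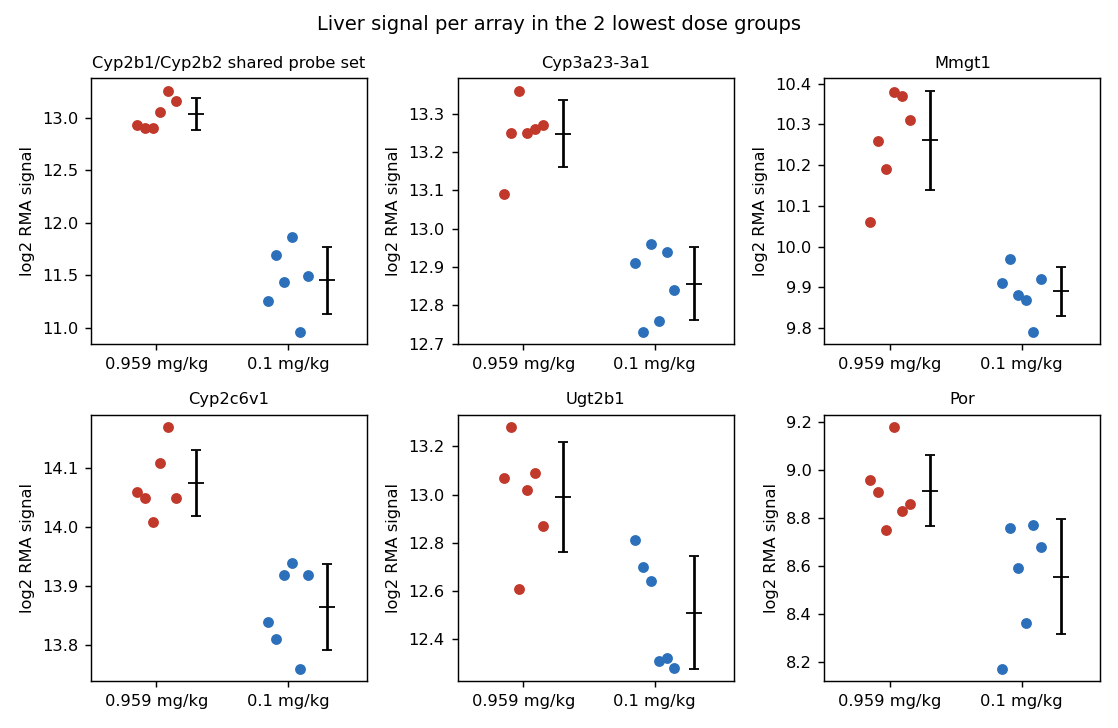
Log2 RMA signal (vertical axis) of 6 probe sets, each point 1 array, with 0.959 mg/kg on the left in red and 0.1 mg/kg on the right in blue; black bars are the mean and SD over 6 arrays, and each panel has its own scale, which does not start at 0. The groups are fully apart for the shared Cyp2b probe set, Cyp3a23-3a1, Mmgt1 and Cyp2c6v1, and overlap for Ugt2b1 and Por.

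The DNA just upstream of the genes behind both risen probe sets is shown because the members of each pair are so alike, and because a near neighbour of Cyp3a23-3a1 did not pass. Sequences are from RefSeq (build GRCr8), 5′ to 3′ on the gene's strand, and end at the last base before the annotated start. For the Cyp2b genes, capitals mark their longest shared run of 72 bases, which lies 183 to 112 bases before each start. Over 212 aligned bases, 204 (96.2%) were identical.
Cyp2b1, chr1:90645869-90646097, plus strand: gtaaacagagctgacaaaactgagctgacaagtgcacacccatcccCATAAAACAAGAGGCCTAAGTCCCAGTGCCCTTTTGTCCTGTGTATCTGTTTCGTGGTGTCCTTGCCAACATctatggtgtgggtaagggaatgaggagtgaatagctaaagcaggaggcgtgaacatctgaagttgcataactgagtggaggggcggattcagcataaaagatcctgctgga
Cyp2b2, chr1:90722031-90722242, plus strand: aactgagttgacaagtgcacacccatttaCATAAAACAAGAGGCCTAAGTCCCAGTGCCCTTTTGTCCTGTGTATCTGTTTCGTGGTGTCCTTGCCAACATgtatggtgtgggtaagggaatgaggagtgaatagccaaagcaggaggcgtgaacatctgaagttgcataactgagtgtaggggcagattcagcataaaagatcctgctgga
For the Cyp3a genes, capitals mark TGAACTNNNTGAACT, a direct repeat with a gap of 3 bases searched on both strands. The form of the repeat is TGAACTTCATGAACT in Cyp3a23-3a1, 144 to 130 bases before the start, and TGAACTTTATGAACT in Cyp3a2, 102 to 88 bases before the start. Closely matching bases follow both repeats, and the printed Cyp3a2 sequence ends before the last stretch of that of Cyp3a23-3a1. The distances therefore depend on where each start is annotated. Over 202 aligned bases, 178 (88.1%) were identical.
Cyp3a23-3a1, chr12:14398804-14399053, minus strand: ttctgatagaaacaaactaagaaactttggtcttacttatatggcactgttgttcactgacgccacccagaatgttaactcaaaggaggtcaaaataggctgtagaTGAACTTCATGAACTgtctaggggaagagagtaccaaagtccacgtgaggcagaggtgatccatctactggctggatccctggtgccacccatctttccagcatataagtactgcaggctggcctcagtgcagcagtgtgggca
Cyp3a2, chr12:14343887-14344107, minus strand: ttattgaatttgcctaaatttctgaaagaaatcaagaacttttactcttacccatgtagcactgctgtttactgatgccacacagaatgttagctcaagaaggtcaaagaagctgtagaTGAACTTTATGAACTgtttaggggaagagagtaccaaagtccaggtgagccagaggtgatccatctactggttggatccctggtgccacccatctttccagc
The repeat was found in 2 of 33469 promoter windows (0.00598%), those of these same 2 genes. The search allowed no mismatch in either unit, so the share covers this exact form only and does not measure how rare related repeats are. The repeat's single unit TGAACT was found in 14.5% of all windows. It was found in 10 of the 29 windows (34.5%) matched for the CAR and PXR targets together with Cyp2b1 and Cyp2b2. These shares are not like for like, since the 29 are 1 window per gene and the 33469 cover 27457 genes. The 10 include the related genes Cyp3a23-3a1, Cyp3a2, Cyp3a9 and Cyp3a18, the first 2 of which carry the repeat and so the unit. A match of letters is a description and shows no binding. Both Cyp3a genes carry the repeat. Cyp3a2, a male-specific P450 gene of rat liver, had means of 14.14 ± 0.0592 at 0.959 mg/kg and 14.09 ± 0.058 at 0.1 mg/kg (SD, n = 6 each). Its log2 difference was 0.05 (95% interval -0.04 to 0.13, limma adjusted p = 0.999), an interval below that of Cyp3a23-3a1 (0.25 to 0.53). Cyp3a2 lay near the top of the signal range, the highest value on the 12 arrays being 15. A loss of difference at such levels was not tested. The difference between the 2 genes' responses was not tested.

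The remaining P450 genes of the CAR and PXR list gave smaller or noisier differences. Cyp2c6v1, which encodes a drug-oxidising P450, ranged from 14.01 to 14.17 at 0.959 mg/kg (median 14.06), against 13.76 to 13.94 at 0.1 mg/kg (median 13.88). Its groups did not overlap, yet the log2 difference of 0.21 (SE 0.0411) missed the threshold over all probe sets (limma adjusted p = 0.129). It passed with the intensity trend and robust estimation (adjusted p = 0.00249), without variance moderation (0.00209), and where fewer probe sets were tested (0.0239 and 0.0467). In 18 of 22 alternative fits it did not pass, and the limma adjusted p reached 0.603 with an array left out. Cyp3a9, another Cyp3a gene, varied far more between arrays, from 7.43 to 9.55 at 0.959 mg/kg and from 7.33 to 8.71 at 0.1 mg/kg. Its log2 difference of 0.66 had an SE of 0.319 (adjusted p = 0.999). Cyp3a18 averaged 12.75 at 0.959 mg/kg and 12.73 at 0.1 mg/kg, and Cyp2c7 averaged 13.29 at 0.959 mg/kg and 13.39 at 0.1 mg/kg. Por, the reductase that passes electrons to microsomal P450 enzymes, ranged from 8.75 to 9.18 at 0.959 mg/kg (median 8.88), against 8.17 to 8.77 at 0.1 mg/kg (median 8.64). In 5 of 6 arrays it lay above every 0.1 mg/kg array, with a log2 difference of 0.36 (SE 0.106, adjusted p = 0.96) and 0.30 at a second probe set. Alas1, the rate-limiting enzyme of haem synthesis, averaged 10.66 ± 0.429 at 0.959 mg/kg and 10.39 ± 0.309 at 0.1 mg/kg (SD, n = 6 each), with overlapping groups.

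Among enzymes that hydrolyse or conjugate foreign compounds, the nearest to the threshold was Ugt2b1, a glucuronosyltransferase gene. Its signals were 12.61, 13.05 and 13.28 (lowest, median and highest) at 0.959 mg/kg, against 12.28, 12.48 and 12.81 at 0.1 mg/kg, so that 5 of 6 arrays cleared every array of the lower dose. The log2 difference was 0.48 (SE 0.102, limma adjusted p = 0.335). Ces2c, a carboxylesterase gene, had signals of 7.75, 8.10 and 8.20 at 0.959 mg/kg, against 7.44, 7.61 and 7.75 at 0.1 mg/kg, again with 5 of 6 arrays clear. Its log2 difference was 0.42 (SE 0.123, adjusted p = 0.96). Ephx1, the microsomal epoxide hydrolase, averaged 12.99 ± 0.131 at 0.959 mg/kg and 12.78 ± 0.0819 at 0.1 mg/kg (SD, n = 6 each), a log2 difference of 0.21. Gsta4, a glutathione transferase gene, differed by 0.24 on the log2 scale, and a probe set shared by Gsta5 and Gsta2 by 0.27 (adjusted p = 0.96 and 0.999). The 2 probe sets shared by the Ugt1a genes differed by only 0.09 and 0.06. Of the export pumps, neither Abcc2 nor Abcc3 passed (limma adjusted p = 0.999 for both). Abcc2, the canalicular pump for conjugates, averaged 10.45 at 0.959 mg/kg and 10.24 at 0.1 mg/kg (log2 0.20, SE 0.0738). Abcc3, its basolateral relative, averaged 6.01 ± 0.415 at 0.959 mg/kg and 5.66 ± 0.253 at 0.1 mg/kg (SD, n = 6 each), and 2 of 6 arrays cleared the lower dose.

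The list of CAR and PXR targets held 36 genes, of which 29 had a probe set with 1 gene symbol; the shared Cyp2b probe set stands outside that count. Of the 29, 1 passed the threshold, Cyp3a23-3a1, and 2 had groups that did not overlap, it and Cyp2c6v1, where 0.19% of all 14217 genes did not overlap. An unadjusted p under 0.05 with a higher signal at 0.959 mg/kg was found for 13 of the 29, and 0 had one with a lower signal. Over all genes these shares were 2.25% and 2.26%. This list, like the other lists below, was chosen with earlier results of these data known, so its counts are no independent test. The log2 difference was above 0 for 25 of 29 list genes and for 49.5% of all genes, and its median was 0.193 in the list and -0.0008 over all genes. Without 0.1 mg/kg replicate 6 the list median was 0.178, with 24 genes above 0. The receptors themselves did not pass. Nr1i3, which encodes CAR, had a log2 difference of 0.12 (95% interval -0.21 to 0.45), and Nr1i2, which encodes PXR, one of -0.06 (95% interval -0.20 to 0.09).

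**Figure D3:**
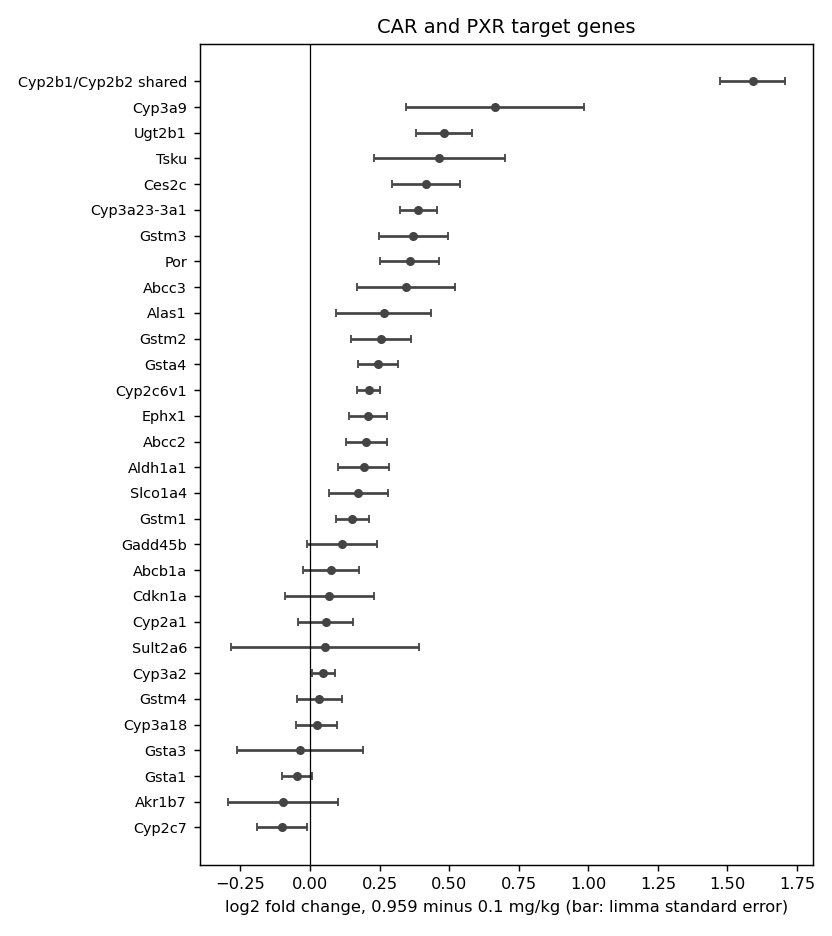
Log2 difference of 0.959 minus 0.1 mg/kg (horizontal axis) for the 29 measured CAR and PXR targets and the probe set shared by Cyp2b1 and Cyp2b2, ordered by size; bars are limma standard errors. All but 4 targets lie right of 0, and the shared Cyp2b probe set, at 1.59, is well beyond the next, Cyp3a9, whose bar is long.

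Across the dose series the shared Cyp2b probe set averaged 11.45, 13.04, 13.52, 13.51 and 13.56, the doses running from 0.1 to 959 mg/kg (SD 0.321, 0.151, 0.155, 0.16 and 0.222, n = 6 each). The first step thus held 75.1% of the log2 difference of 2.11 between the lowest and the highest dose. Its first step exceeded its middle step, 9.59 against 0.959 mg/kg, by 1.11 (SE 0.201, 95% interval 0.70 to 1.52), which missed the threshold over all probe sets (limma adjusted p = 0.17). Cyp3a23-3a1 averaged 12.86, 13.25, 13.41, 13.43 and 13.47 at the same doses, with 63.2% of its difference in the first step. Ugt2b1 averaged 12.51, 12.99, 13.36, 13.31 and 13.29 (62% in the first step), and Ces2c 7.60, 8.01, 8.48, 8.49 and 8.48 (47%). Beyond 9.59 mg/kg the means of these 4 moved by less than their SDs at that dose, as the plot of the dose series shows. Cyp1a1, a target of the aryl hydrocarbon receptor, had no such step at low dose. It averaged 4.68 ± 0.232 at 0.959 mg/kg and 4.77 ± 0.238 at 0.1 mg/kg (SD, n = 6 each), a log2 difference of -0.09 (95% interval -0.57 to 0.39). It rose later, by 1.63 in the step to 95.9 mg/kg (adjusted p = 0.0035) and by 3.09 in the step to 959 mg/kg (adjusted p = 1.89e-09). The receptor gene Ahr had a log2 difference of 0.38 in the first step at one probe set and 0.05 at its other (adjusted p = 0.999 for both). Of the 8 measured AhR targets 0 passed.

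**Figure D4:**
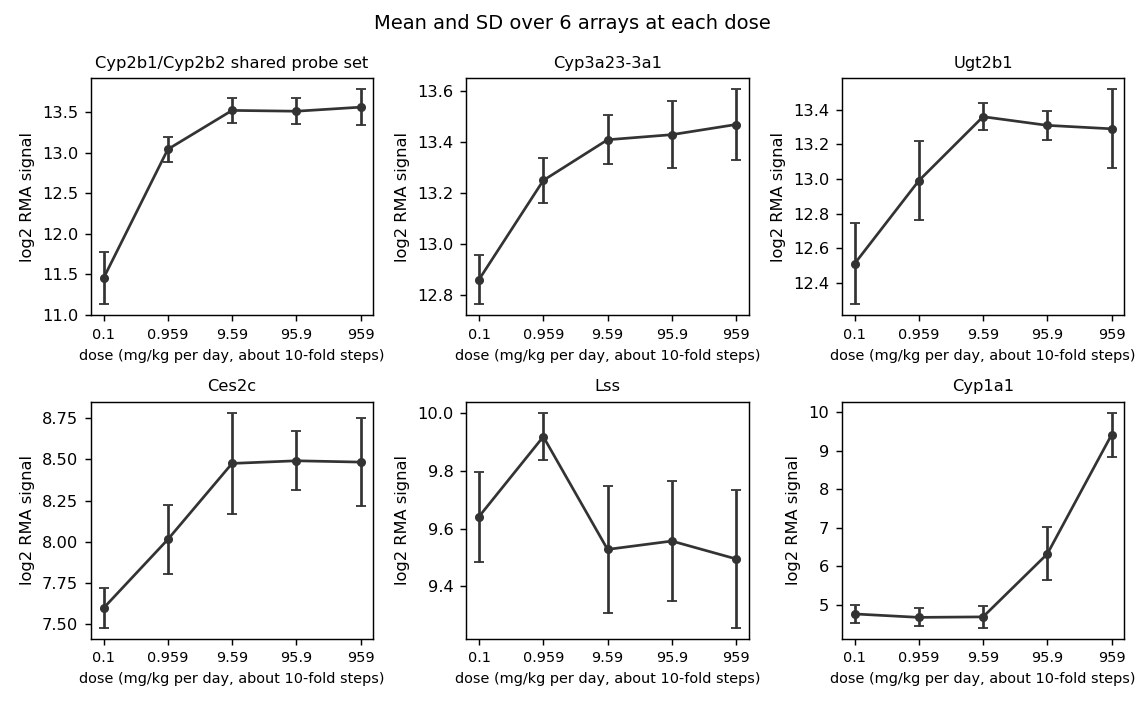
Mean log2 RMA signal (vertical axis) at each of the 5 doses in mg/kg per day (horizontal axis, drawn in equal steps), with SD bars over 6 arrays; each panel has its own scale, which does not start at 0. The shared Cyp2b probe set climbs mostly between 0.1 and 0.959 mg/kg, Cyp1a1 climbs above 9.59 mg/kg, and Lss is highest at 0.959 mg/kg.

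The other steps called as few probe sets. The middle step called 1 (0.00322%), without a gene name and lower (log2 -0.585, adjusted p = 0.04). The upper step called 1 (0.00322%), Cyp1a1, and the top step 2 (0.00644%), Cyp1a1 and Cyp1a2. The difference between the first and the middle step passed for 0 probe sets in limma, and 1682 (5.42%) had an unadjusted p under 0.05.

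Outside drug metabolism the gene nearest to the threshold was Mmgt1, which encodes a membrane magnesium transporter. Its signals were 10.06, 10.29 and 10.38 (lowest, median and highest) at 0.959 mg/kg, against 9.79, 9.90 and 9.97 at 0.1 mg/kg, with no overlap. The log2 difference was 0.37 (SE 0.0705, limma adjusted p = 0.111), and a second, dimmer probe set gave 0.31. Mmgt1 passed without 0.959 mg/kg replicate 1 (adjusted p = 0.0267), with the intensity trend and robust estimation (0.024), and where fewer probe sets were tested (0.04 and 0.0467). In 18 of 22 alternative fits it did not pass, and the limma adjusted p reached 0.551 with an array left out. Stbd1, whose product binds glycogen, differed by 0.34 (SE 0.0884, adjusted p = 0.804), with 5 of 6 arrays above every 0.1 mg/kg array. Kmt5a, a histone methyltransferase gene, H2ax, a histone variant gene of the DNA damage response, and Tac1, the precursor of substance P, followed with log2 differences of 0.48, 0.28 and 0.28 (adjusted p = 0.804 for each). Mettl8, and Vps26a, a retromer gene, differed by 0.49 and 0.27 (adjusted p = 0.807 and 0.829). Second, dimmer probe sets gave 0.13 for H2ax and 0.17 for Vps26a.

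Of genes with a lower signal at 0.959 mg/kg, Acss1, which encodes a mitochondrial acetyl-CoA synthetase, had the smallest p. Its signals were 3.61, 3.68 and 3.83 (lowest, median and highest) at 0.959 mg/kg, against 3.89, 4.05 and 4.27 at 0.1 mg/kg. The groups did not overlap, the log2 difference was -0.37 (SE 0.0829), and limma's adjusted p was 0.514. Groups were also apart for Treh, the trehalase gene (log2 -0.32), Zbed3 (-0.27) and Ninj2 (-0.27), each with an adjusted p of 0.96. Eva1a, Cstpp1, Sh3gl2, Efnb3, Rexo1 and Plcg2 had log2 differences of -0.46, -0.32, -0.33, -0.26, -0.25 and -0.24 with overlapping groups. Sh3gl2 and Rexo1 have other probe sets that gave differences of 0.05 for the first gene and of 0.13 and -0.04 for the second, so their direction is not settled.

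Genes of cholesterol synthesis lay on one side without a call. Of the 25 listed 20 were measured, all 20 with a log2 difference above 0, and 0 passed. An unadjusted p under 0.05 with a higher signal was found for 8 of them. Over all genes, 49.5% were above 0 and 2.25% had such a p. Groups did not overlap for 2 of the 20, Sqle among them, and for 0.19% of all genes. The list median was 0.212, and 0.224 without 0.1 mg/kg replicate 6. Sqle, squalene epoxidase, ranged from 9.40 to 9.65 at 0.959 mg/kg, against 8.90 to 9.30 at 0.1 mg/kg, with no overlap and a log2 difference of 0.35 (SE 0.136, limma adjusted p = 0.999). Cyp51, which demethylates lanosterol, ranged from 12.41 to 12.66 at 0.959 mg/kg and from 11.87 to 12.52 at 0.1 mg/kg, a log2 difference of 0.30 (adjusted p = 0.96). Lss, lanosterol synthase, differed by 0.28 at both of its probe sets and Fdft1, squalene synthase, by 0.20 and 0.18. In the middle step the list median was -0.167. Both steps share the 0.959 mg/kg arrays, with opposite signs, so the 2 medians are not independent. Lss averaged 9.64, 9.92, 9.53, 9.56 and 9.50 from 0.1 to 959 mg/kg, and its first minus middle step was 0.67 (SE 0.182, adjusted p = 0.849).

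Genes of the cell cycle also lay mostly above 0, with wide spread. Of 37 listed 35 were measured, 32 were above 0, 8 had an unadjusted p under 0.05 with a higher signal, and 0 passed. Over all genes, 49.5% were above 0 and 2.25% had such a p. The list median was 0.173, and 0.192 without 0.1 mg/kg replicate 6. Cdk1, the kinase that drives entry into mitosis, ranged from 5.93 to 7.26 at 0.959 mg/kg, against 5.36 to 6.12 at 0.1 mg/kg. Cdk1 and its partner Ccnb2, cyclin B2, each had 4 of 6 arrays above every 0.1 mg/kg array, and the rest overlapped. Their log2 differences were 0.65 (SE 0.234) and 0.68 (SE 0.227), and that of Cdkn3, a phosphatase gene of the cell cycle, was 0.81 (SE 0.296), each with a limma adjusted p of 0.999. In the middle step the list median was -0.153, from the same 0.959 mg/kg arrays. In whole liver, more cells of a type and more RNA per cell cannot be told apart.

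Other stress and signalling lists held 0 genes past the threshold. Over all genes, 49.5% were above 0 (52.3% without 0.1 mg/kg replicate 6), and 2.25% had an unadjusted p under 0.05 with a higher signal. NRF2 targets, which defend against oxidants, had 16 of 19 genes above 0 and a median of 0.086, and 4 had an unadjusted p under 0.05 with a higher signal, among them Ephx1, which the CAR and PXR list also holds, and Abcc4 (log2 0.29). Heat shock genes had 10 of 11 above 0, a median of 0.067 and 2 with such a p. Hsp90ab1, a chaperone gene, differed by 0.29, by 0.09 at its other probe set, and by 0.12 at the first without 0.1 mg/kg replicate 6. Interferon genes had a median of 0.061, and 0.169 without that array. PPARA targets had 10 of 27 above 0 and a median of -0.014, with 13 above 0 and a median of -0.005 without it. Of 19 bile acid genes 4 were above 0, with a median of -0.034, and 7 without that array, with a median of -0.017. Gluconeogenesis and fasting genes had 4 of 12 above 0 and a median of -0.109, and 2 of 12 and a median of -0.134 without it. Of 12 thyroid hormone response genes 9 were above 0; Gpd2, the mitochondrial glycerol phosphate dehydrogenase, differed by -0.36 (adjusted p = 0.999) and Dio1, the deiodinase gene, by 0.02.

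Markers of other cell types gave 0 calls. Over all genes, 49.5% were above 0, and 52.3% without 0.1 mg/kg replicate 6. Lymphocyte markers lay below 0 in 18 of 19 genes with a median of -0.096, and averaged 5.00 to 5.15 per array at 0.959 mg/kg and 4.91 to 5.45 at 0.1 mg/kg. Without 0.1 mg/kg replicate 6 their median was -0.066 and 6 of 19 were above 0. Kupffer cell and macrophage markers had a median of -0.031, which turned to 0.076 without that array. They averaged 8.03 to 8.66 per array at 0.959 mg/kg and 7.86 to 8.87 at 0.1 mg/kg. Endothelial markers lay below 0 in 13 of 16 genes, with a median of -0.051, and averaged 7.41 to 7.52 at 0.959 mg/kg and 7.40 to 7.60 at 0.1 mg/kg. Kdr, the VEGF receptor of endothelium, had a log2 difference of -0.12 with groups that did not overlap, as held for 0.19% of all genes. Its other, dimmer probe set gave -0.05. Hepatocyte markers had a median of 0 and 6 of 13 above 0, and a median of -0.005 without 0.1 mg/kg replicate 6. Periportal markers had 4 of 13 above 0 (median -0.056), with Hal, histidine ammonia lyase, at -0.27. Pericentral markers had 8 of 14 above 0 (median 0.015, and -0.001 without that array). Among them Glul, glutamine synthetase, was at -0.21, and at -0.14 and -0.18 at its other probe sets. The transporter gene Slc1a2 was at 0.30, and at 0.02 at its other, dimmer probe set. The part of cell composition in the results above was not tested.

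**Figure D5:**
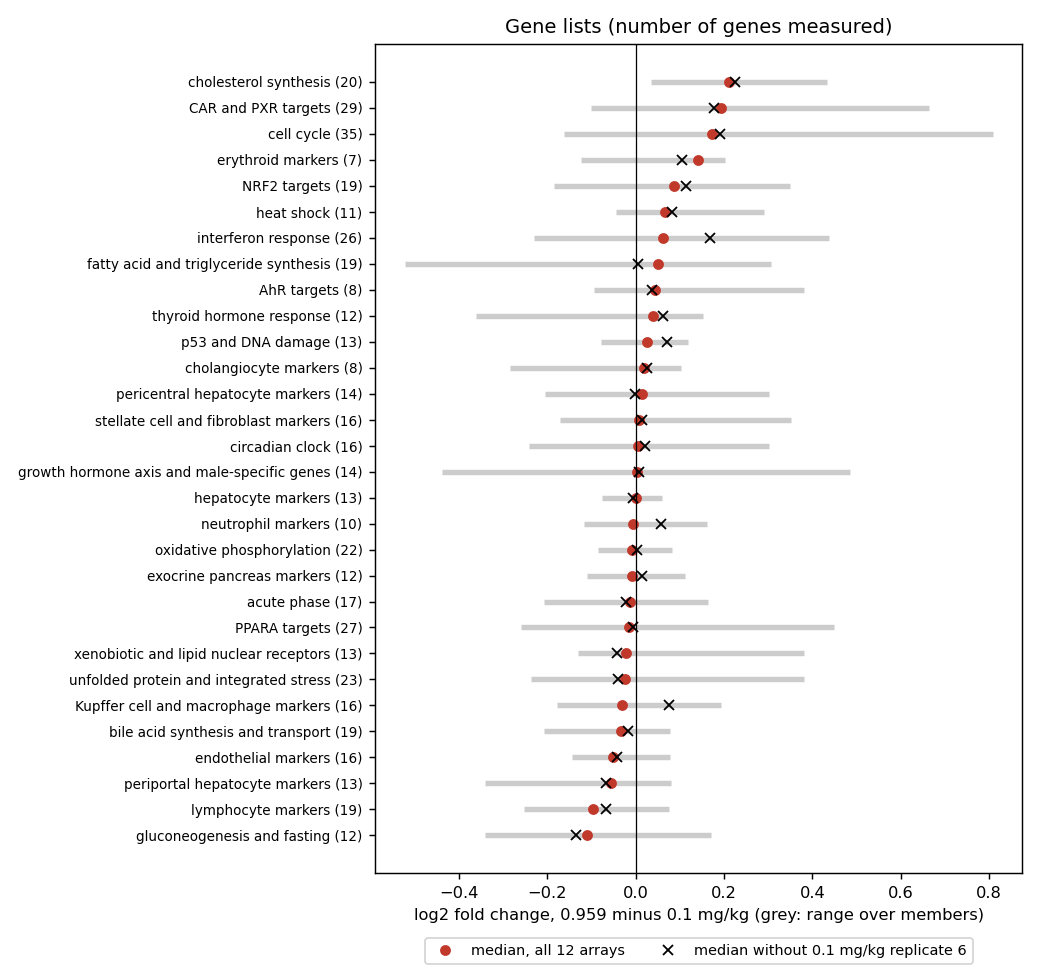
Median log2 difference of 0.959 minus 0.1 mg/kg (horizontal axis) of 30 gene lists, with the number of measured genes in brackets; red points use all 12 arrays, crosses leave out 0.1 mg/kg replicate 6, and grey bars span the lowest to the highest member. Cholesterol synthesis (0.212), CAR and PXR targets (0.193) and cell cycle (0.173) have the highest medians, and without that array the medians of Kupffer cell and macrophage, neutrophil, exocrine pancreas and pericentral markers and of oxidative phosphorylation change sign.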

How the data were processed

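The deposited values are log2 RMA signals, made by the authors with the affy package per the submitters' processing notes; its version is not given in the sources used here. RMA corrects the background, equalises the arrays' distributions and summarises the probes of a set, which draws in a shift common to all genes. All 36 sample columns carry a sample title, 0 other columns were left aside, and groups come from the titles. The table lists 31099 probe sets, and the 57 that are array controls were dropped. In GEO's platform annotation 20826 of the remainder have 1 gene symbol, 436 have several and 9780 have none; 20758 of the gene IDs were found in RefSeq and 0 symbols differed. Per gene, the probe set with the highest mean over the 30 dosed arrays was used in lists (14217 genes).

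limma 3.58.1 in R 4.3.3 (lmFit, eBayes) was fitted to the 30 dosed arrays with 1 mean per dose (25 residual and 5.06 prior degrees of freedom), and two-sided contrasts took neighbouring doses. limma stands in for the maanova package that the series' design text names. The Benjamini-Hochberg adjustment ran over the whole set of 31042 at a threshold of 0.05. Lists were described by counts and medians, without a test. Arrays of one number did not pair across the doses: the correlation of their deviations passed 0.1 for 1 of 6 numbers.

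The genes named are those past the threshold, filled to 10 per direction by the smallest unadjusted p, up to 4 per list by the smallest p, 35 followed genes of which 32 were measured, and shared Cyp2b and Ugt1a probe sets. Members and lists were chosen with earlier results of these data known. On simulated arrays for the first dose step (31042 probe sets), 50 were changed at each size. Of true log2 changes of 0.25, 30% were called, of 0.5 84%, and of 1 and 2 100%, with 8 false calls. Many more probe sets were changed there than the 2 called here, which makes the adjustment less strict. These shares are therefore likely too high for the real step and do not give its sensitivity. Alternatives were other normalizations, filters, variance models, sample sets, a replicate block, weights per array and each array left out. The sample sets included all 36 arrays, with those of corn oil alone. The exact permutation test was added after seeing the data.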

Additional observations from a re-analysis of the deposited data

Results flagged for a closer look

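Of 320 groups of 6 arrays checked among the named genes, 20 held 1 array far from its group, its gap to the next array being over 0.625 of the group's range; chance gives about 1 in 20 groups. At 0.959 mg/kg these were Vps26a at 9.62 in replicate 2 (next array 9.44), Zbed3 at 7.44 in replicate 3, Slc16a10, a thyroid hormone transporter gene, at 5.91 in replicate 5, Ifi44 at 5.79 in replicate 4, Hnf4a at 12.2 in replicate 4, Cldn4 at 3 in replicate 3 (next array 3.28) and Klf1 at 3.84 in replicate 6. A probe set shared by the Ugt1a genes was at 12.2 in replicate 1 of that dose, against 12.3 in the next array.

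At 0.1 mg/kg, 8 of the 12 such values came from replicate 6, the array that stood apart. In it Atf3 was at 5.52, Tie1 at 6.39, Cd79b at 5.58 and Hbb at 13.1, each the highest of its group. Fbp1 at 12.6, Hsp90ab1 at 11.4, Clock at 8.23 and Igfbp3 at 9.01 were each the lowest. The other 4 were Zbed3 at 8.28 in replicate 4, Ctsc at 11.7 in replicate 3, Prnp at 7.33 in replicate 1 and Adamts8 at 3.2 in replicate 4.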

How the results depend on the processing

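The call for the probe set shared by Cyp2b1 and Cyp2b2 held in all 21 alternatives that could test it, with a log2 difference of 1.49 to 1.67 with each array left out. That for Cyp3a23-3a1 was lost in 11 of 22, the 9 arrays named above, the fit to only the 12 arrays compared (limma adjusted p = 0.256) and the replicate block (adjusted p = 0.18). The first step called 2 probe sets; this became 1 with the replicate block or only the compared arrays, 4 when dim probe sets, below the median level, were dropped or with an intensity trend and robust estimation, and 1 to 3 with an array left out. With the replicate block the middle step called 0 in place of 1. It also called 0 after quantile normalization, after subtracting each array's median, with the brightest probe set per gene, without variance moderation and with only the compared arrays, and 0 to 3 with an array left out. The upper step called 0 in place of 1 with only the compared arrays, and 1 throughout with an array left out. The top step called 1 in place of 2 after quantile normalization, after subtracting medians and with only the compared arrays, and 1 to 2 with an array left out. The first minus the middle step called 0 to 2 with an array left out: 1 without 0.1 mg/kg replicate 4 and 2 without 0.959 mg/kg replicate 4. Fewer probe sets are tested without the dim ones and with 1 probe set per gene, and fewer arrays enter the fits to compared groups; for the other alternatives the cause was not tested. The actin difference of -0.0178 ranged from -0.0558 to 0.0256 with an array left out and changed sign without 0.959 mg/kg replicate 2 (0.00751), 0.1 mg/kg replicate 4 (0.0103) or 0.1 mg/kg replicate 5 (0.0256). Of 3486 gene values under alternatives, 3467 stayed on the same side of the threshold, 11 lost the call and 8 gained it. The sign changed in 15 of the uncalled values, in 5 genes whose reported differences were at most 0.07 in size. Of 660 list medians, 76 changed sign, over 14 lists, and 1 moved by more than 1 SD. No detection call was used, so dim probe sets such as those of Acss1, Treh, Sh3gl2 and Plcg2 have no stated distance from background.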

Other observations

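Large differences without a call were seen in probe sets that varied strongly between arrays; they were picked out after their values were seen. A probe set shared by the class I histocompatibility genes RT1-A3 and RT1-A2 averaged 10.76 ± 0.628 at 0.959 mg/kg and 8.42 ± 3.38 at 0.1 mg/kg (SD, n = 6 each), a log2 difference of 2.34 with a limma adjusted p of 0.999. One probe set of Ugt2b averaged 11.82 ± 3.5 at 0.959 mg/kg and 13.30 ± 0.141 at 0.1 mg/kg, and a second Ugt2b probe set 8.42 ± 2.42 at 0.959 mg/kg and 9.60 ± 0.432 at 0.1 mg/kg. Of the 6 probe sets that differed by more than 1 on the log2 scale, only the shared Cyp2b probe set passed.

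Within a dose, the shared Cyp2b signal of an array was set against that of Cyp3a23-3a1, Cyp2c6v1, Ugt2b1, Mmgt1, Por and Ces2c, and 0 of the 12 relations over 6 arrays each passed (smallest Benjamini-Hochberg adjusted p = 0.416). The smallest p was with Cyp3a23-3a1 at 0.1 mg/kg (Pearson's r -0.80, exact permutation p = 0.0514; Spearman's rho -0.77, exact permutation p = 0.103; adjusted p = 0.416 and 0.6). At 0.959 mg/kg the same pair had an r of 0.10 (exact permutation p = 0.883), and the difference between the doses was not tested. Cyp2c6v1 had an r of 0.77 at 0.959 mg/kg and 0.66 at 0.1 mg/kg, and Mmgt1 one of 0.70 at 0.959 mg/kg and 0.59 at 0.1 mg/kg. Without the 2 arrays farthest from the median, r moved widely for some genes. It was again -0.80 for Cyp3a23-3a1 at 0.1 mg/kg, but 0.90 at 0.959 mg/kg and -0.25 at 0.1 mg/kg for Cyp2c6v1. For Por it was 0.91 at both doses, against -0.01 at 0.959 mg/kg and -0.16 at 0.1 mg/kg with all 6 arrays. Each r without 2 arrays rests on very few points and was not tested, so the 0.91 at both doses is no evidence of a relation.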
